A study of Mus musculus with 15 samples.

Results

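Purkinje cell identity markers are described here as 8 named genes, Pcp2, Pcp4, Calb1, Pvalb, Ppp1r17, Gng13, Dner and Icmt, out of 24420 gene symbols counted in mouse cerebellum. All 8 were found in the count table by symbol, and all 8 passed the filter on low counts. The samples fall into 3 groups of 5 libraries. The WT group carries wild type alleles on FVB/nJ at 9 weeks. The 82Q group carries Atxn1[82Q], an Atxn1 allele with an expanded glutamine repeat, also on FVB/nJ at 9 weeks. The 82Q_M120A group carries Atxn1[82Q] together with CalphaLoxM120A, an altered gene for the catalytic subunit of protein kinase A, on mixed C57BL/6J:FVB/nJ background at 8 weeks. In any difference that involves 82Q_M120A the kinase allele, the strain and the age cannot be told apart, and no group used here carries the kinase allele on an Atxn1 wild type background. The design text calls the 82Q animals a knockin, while a widely used mouse line for the same disease drives expanded human ATXN1 from regulatory sequence of Pcp2. Which promoter is used, and what recombines the kinase allele, is not stated in the sources used here.

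Purkinje cells are the large GABAergic neurons of the cerebellar cortex and its sole output. Spinocerebellar ataxia type 1, which the expanded Atxn1 allele models, damages them early. Their identity is usually read from calcium handling proteins (Calb1 and Pvalb, which buffer calcium, and Pcp4, a small protein that binds calmodulin), from modulators of G proteins and phosphatases (Pcp2, which regulates inhibitory G protein alpha subunits, Gng13, a G protein gamma subunit, and Ppp1r17, a phosphatase inhibitor that cGMP-dependent kinase phosphorylates), and from Dner, a membrane protein with EGF repeats that binds Notch on Bergmann glia. Icmt differs from the rest. It encodes a methyltransferase of prenylated proteins that most cells make, and it is known in Purkinje cells as a gene repressed early by expanded Atxn1. Pvalb is also made by molecular layer interneurons, and Calb1, Pcp4 and Dner by neurons outside the cerebellar cortex. Bulk counts do not say which cell a read came from, so fewer Purkinje cells and less of an RNA per Purkinje cell cannot be told apart.

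Libraries held 38322749 to 99422994 counts, with the shallowest in WT. The members rested on 2137 to 85834 counts per library. For the 30 pairs of libraries within a group the chi-square of the counts was 7.08 to 71.94 times its degrees of freedom, so no pair looked like one library counted again. Levels are given as CPM, which are counts put on 1 library size by TMM factors, and libraries are numbered by the place of their column within the group. The labels do not say that the 5 samples of a group came from separate animals, so the p-values describe spread between samples, which may be technical. Tissue markers were present at high levels, with granule cell genes summing to 6250 to 7700 CPM. Choroid plexus genes, which mark tissue attached at dissection, ran from 22.9 to 2800 CPM and varied within every group. They summed to 1640 to 2610 CPM in 4 WT libraries and to 37.6 in WT-4, to 2800 and 2100 CPM in 82Q-2 and 82Q-5 and at most 306 in the other 82Q libraries, and to 2060 CPM in 82Q_M120A-1 and at most 37.2 in the other libraries of that group.

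All 8 genes were lower in 82Q than in WT, and all 8 were lower in 82Q_M120A than in WT. The loss was unequal. Gng13 kept 20.4% of its WT level in 82Q, Icmt 34.6%, Pcp4 40.5%, Calb1 45.0%, Dner 46.2%, Ppp1r17 48.2%, Pcp2 49.3% and Pvalb 67.7%. None of the 8 was called different between 82Q_M120A and 82Q. In 82Q against WT all 8 were called lower (edgeR quasi-likelihood, adjusted p under 0.05 over 16808 tested genes), where 10.1% of all tested genes were called lower. In 82Q_M120A against WT all 8 were called lower, where 17.8% of tested genes were.

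**Figure D1:**
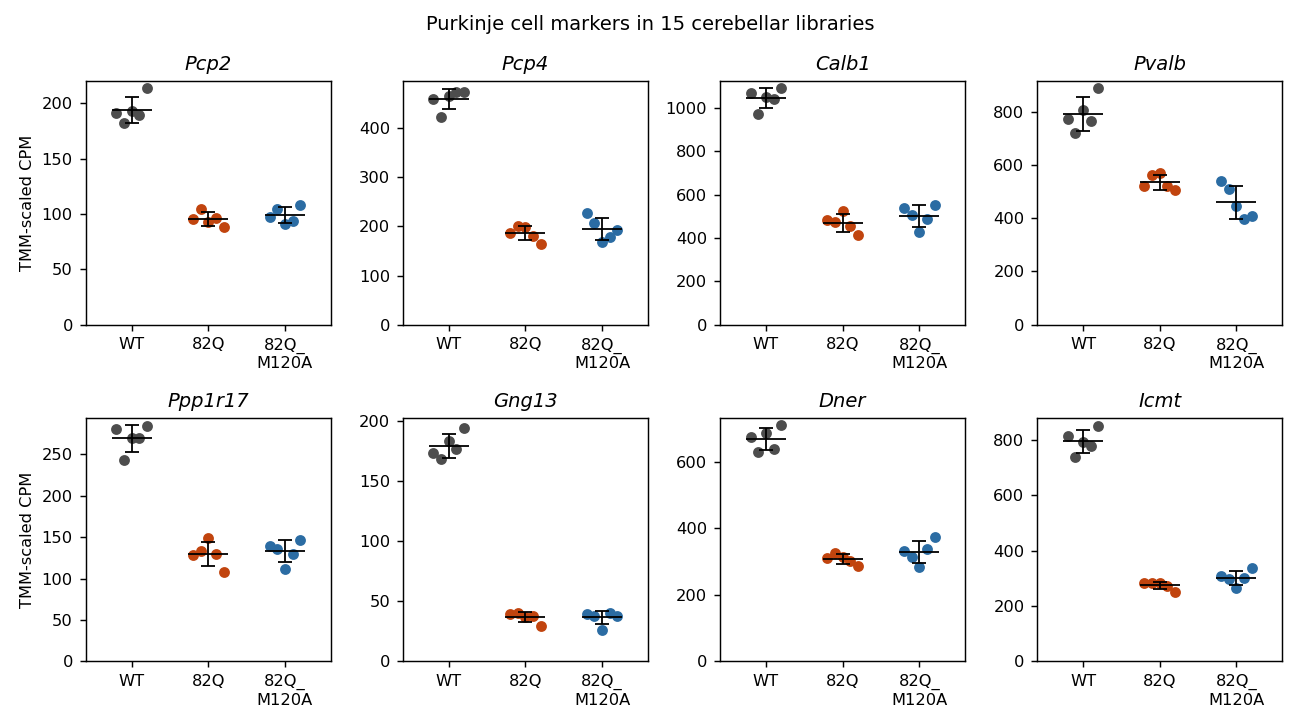
TMM-scaled CPM of each marker in the 15 libraries, 1 point per library, with the mean and SD (n = 5) of each group and a y axis that starts at 0. All WT libraries lie above all libraries of the other groups in every panel, by the widest margin as a fold between the nearest libraries for Gng13 (4.2-fold, 168 to 194 CPM against 29.7 to 40.1 in 82Q) and the narrowest for Pvalb (1.26-fold, 720 to 890 against 506 to 570).

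Gng13 (ENSMUSG00000025739.13, chr17:25717171-25719406, mm10, plus strand), the gamma subunit, fell furthest. Its level was 173, 168, 183, 176 and 194 CPM in the WT libraries, 39.1, 40.1, 36.5, 37.5 and 29.7 CPM in the 82Q libraries, and 39.7, 38.0, 26.5, 40.3 and 37.9 CPM in the 82Q_M120A libraries, here and below from library 1 to library 5. The lowest WT library stood 4.2-fold above the highest 82Q library, and the ranges of 82Q_M120A and 82Q overlapped, with 82Q_M120A-3 below every 82Q library. The log2 fold change of 82Q against WT was -2.29 ± 0.11 (SE; 4.89-fold, adjusted p = 6.04e-10, edgeR quasi-likelihood), and 14 of the 16808 tested genes had a lower value. In 82Q_M120A against WT it was -2.30 ± 0.11 (adjusted p = 4.64e-10). Chtf18, which overlaps the end of Gng13 on the opposite strand, stood at 2.89 to 4.56 CPM over all libraries, and whether the counting used strand is not stated in the sources used here.

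Icmt (ENSMUSG00000039662.16, chr4:152297227-152307121, plus strand), the prenylcysteine methyltransferase, came next. It read 816, 740, 793, 780 and 851 CPM in the WT libraries, 282, 285, 283, 273 and 252.3 in 82Q, and 307, 299, 264, 301 and 338 in 82Q_M120A. The 82Q libraries were tightly grouped, with a coefficient of variation of 4.91%, and all lay under a WT minimum 2.59-fold above them. Its log2 fold change was -1.53 ± 0.06 in 82Q (adjusted p = 5.79e-12, edgeR quasi-likelihood) and -1.40 ± 0.06 in 82Q_M120A (adjusted p = 8.97e-12). These are the smallest adjusted p values of the 8 genes in either comparison, although the fold is smaller than that of Gng13.

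Among the calcium handling genes the order was Pcp4, Calb1 and Pvalb. Pcp4 (ENSMUSG00000090223.2, chr16:96467606-96525793, plus strand), the calmodulin regulator, stood at 458, 423, 465, 473 and 474 CPM (WT), 186, 200, 199, 181 and 164 in 82Q and 227, 206, 169, 179 and 193 in 82Q_M120A. Its WT libraries did not overlap those of either other group, and its log2 fold change was -1.30 ± 0.07 in 82Q (adjusted p = 7.85e-10, edgeR quasi-likelihood) and -1.23 ± 0.07 in 82Q_M120A (adjusted p = 1.25e-09). Calb1 (ENSMUSG00000028222.2, chr4:15881264-15908064, plus strand), the buffer calbindin, had 1070, 970, 1050, 1040 and 1090 CPM in WT, 481, 475, 524, 457 and 413 in 82Q and 538, 506, 427, 486 and 550 in 82Q_M120A. The highest of the 10 libraries that carry Atxn1[82Q] was thus far below the lowest WT library, and the log2 fold changes against WT were -1.15 ± 0.07 in 82Q (adjusted p = 5.63e-10) and -1.06 ± 0.07 in 82Q_M120A (adjusted p = 1.36e-09).

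Pvalb (ENSMUSG00000005716.16, chr15:78191114-78206400, minus strand), the buffer parvalbumin, was the least changed of the 8 against WT in both groups. It had 774, 720, 805, 765 and 890 CPM in WT, 520, 561, 570, 519 and 506 in 82Q and 541, 508, 444, 397 and 407 in 82Q_M120A. WT stood apart from both other groups by a gap of only 1.26-fold and 1.33-fold, and 3 of the 5 82Q_M120A libraries lay below every 82Q library. The log2 fold change against WT was -0.56 ± 0.08 in 82Q (1.48-fold, adjusted p = 5.18e-05, edgeR quasi-likelihood) and -0.78 ± 0.08 in 82Q_M120A (1.72-fold, adjusted p = 6.63e-07). The markers of molecular layer interneurons and Golgi cells, cells of which the first also make Pvalb, summed to 751, 759, 809, 694 and 809 CPM in WT, 715, 776, 771, 729 and 737 in 82Q and 756, 642, 645, 572 and 599 in 82Q_M120A. In that last group both Pvalb and this sum were highest in 82Q_M120A-1 and lowest in 82Q_M120A-4. The sum joins genes that went both ways. In 82Q_M120A against WT 4 of the 9 were called lower and 3 higher, where 17.8% and 18.6% of tested genes were. The part of interneurons in the Pvalb level was not tested.

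The remaining members fell to similar, though not all equal, degrees. Dner (ENSMUSG00000036766.12, chr1:84369839-84696221, minus strand), which binds Notch, stood at 675, 630, 685, 639 and 711 CPM (WT), 311, 326, 315, 303 and 286 in 82Q and 333, 313, 284, 339 and 373 in 82Q_M120A (log2 fold changes against WT of -1.12 ± 0.06 and -1.03 ± 0.06). Ppp1r17 (ENSMUSG00000002930.6, chr6:56017497-56032689, plus strand), the phosphatase regulator, had 280, 243, 270, 269 and 284 CPM in WT, 128, 133, 149, 130 and 108 in 82Q and 139, 136, 112, 130 and 147 in 82Q_M120A (-1.05 ± 0.08 and -1.02 ± 0.08). Pcp2 (ENSMUSG00000004630.18, chr8:3623371-3625545, minus strand), the G protein modulator also called L7, had 191, 182, 193, 190 and 214 CPM in WT, 95.4, 105, 92.5, 96.1 and 88.6 in 82Q and 97.5, 105, 90.9, 93.9 and 108 in 82Q_M120A (-1.02 ± 0.05 and -0.97 ± 0.05). None of these overlapped WT in any library, and the largest of their adjusted p values against WT was 6.48e-08, that of Ppp1r17 in 82Q (edgeR quasi-likelihood). Pcp2 shares 941 exon bases with Pet100 on the opposite strand. Pet100, an assembly factor of the respiratory chain, went from a median of 24.4 CPM in WT to 19.1 in 82Q and 18.3 in 82Q_M120A (log2 fold change -0.37 ± 0.05 in both, adjusted p = 4.78e-05 and 1.96e-05), and reads of the pair cannot be told apart if strand was not used.

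**Figure D2:**
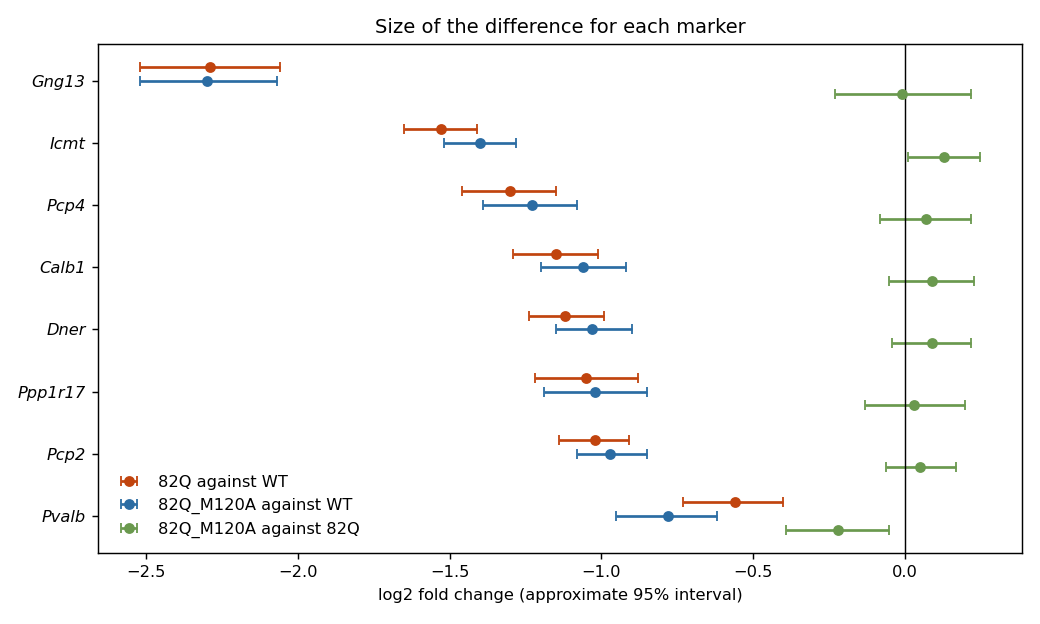
Log2 fold change of each marker (x axis) with an approximate 95% interval, for the 3 comparisons, ordered from the deepest fall in 82Q. Both comparisons with WT lie left of 0 for every gene, from -2.29 for Gng13 to -0.56 for Pvalb in 82Q, and the comparison of 82Q_M120A with 82Q lies between -0.22 and 0.13.

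Scaled to the length of all annotated exons, which may include exons the cerebellum does not use, the order of the levels changed with the allele. In WT the levels were 760 CPM per kilobase for Pvalb, 447 for Pcp4, 232 for Gng13, 215 for Calb1, 153 for Ppp1r17, 151 for Icmt, 140 for Dner and 106 for Pcp2. In 82Q Gng13 was the lowest of the 8 at 47.3 CPM per kilobase, with Icmt at 52.0 and Pcp2 at 52.3 just above it, while Pvalb (514) and Pcp4 (181) kept the top places. In 82Q_M120A Gng13 was again lowest, at 47.2 CPM per kilobase. These lengths include exon bases shared with a neighbouring gene. The largest such parts were 399 of 773 bases for Gng13 (Chtf18), 941 of 1828 for Pcp2 (Pet100) and 243 of 1026 for Pcp4 (Igsf5, same strand). If reads on shared bases were left out of the counts, the levels of these genes per kilobase are too low. The order of Gng13, Icmt and Pcp2 in 82Q is therefore uncertain.

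Sequence before annotated starts was read for the members that RefSeq's table of start sites on GRCm38.p6 holds, which are Pcp2, Pcp4, Pvalb, Gng13, Dner and Icmt, since the 8 genes fell together. The 250 bases before the most upstream start were searched on both strands for AGGTCA, the half-site that retinoic acid receptor related orphan receptors such as Rora bind, for TGAATGAA and TGAATGGA, the octamers of the Atxn1 partner CIC, and for TGACGTCA, the cAMP response element. The window of Icmt lies wholly within an annotated exon of Icmt itself in GENCODE M21, since the RefSeq start is further downstream, so it is not sequence upstream of the gene as given above. AGGTCA was found in 3 of the 6 genes and in 14.0% of all 32817 windows of that length. No CIC octamer and no cAMP response element was found, against 1.08%, 1.01% and 1.55% of all windows. The matches are shown in capitals, 5′ to 3′ on the strand of the gene. For Pcp2 only the 30 bases that end at the annotated start are given (chr8:3625548-3625577, minus strand, match 12 bases before the start), because Pet100 exons lie further upstream. The windows of Pcp4 (chr16:96467356-96467605, plus strand, match on the other strand, 164 bases before the start) and Dner (chr1:84696222-84696471, minus strand, 111 bases before) are given whole. That of Gng13 (chr17:25716922-25717171, plus strand) is given as the gene with the deepest fall and holds none of the searched letters.
Pcp2: cttttaaaaggccttctcAGGTCAgagacc
Pcp4: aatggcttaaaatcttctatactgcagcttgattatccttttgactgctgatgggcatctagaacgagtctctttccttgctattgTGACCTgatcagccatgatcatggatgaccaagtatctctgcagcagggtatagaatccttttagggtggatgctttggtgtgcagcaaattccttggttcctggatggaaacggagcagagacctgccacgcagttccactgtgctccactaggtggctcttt
Dner: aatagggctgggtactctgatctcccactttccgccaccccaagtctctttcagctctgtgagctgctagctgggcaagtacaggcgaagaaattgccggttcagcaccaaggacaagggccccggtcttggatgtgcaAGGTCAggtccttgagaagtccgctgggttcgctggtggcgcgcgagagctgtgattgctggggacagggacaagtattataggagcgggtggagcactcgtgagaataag
Gng13: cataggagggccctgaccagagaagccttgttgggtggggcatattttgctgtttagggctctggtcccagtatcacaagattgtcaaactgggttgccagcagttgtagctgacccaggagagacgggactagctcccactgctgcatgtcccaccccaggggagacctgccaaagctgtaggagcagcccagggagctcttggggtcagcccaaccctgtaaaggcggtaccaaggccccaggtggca
A match is a run of letters and does not show that a factor binds there. Pcp2, Pcp4 and Dner, which hold AGGTCA, fell by 1.02, 1.30 and 1.12 log2 units in 82Q, and Pvalb and Gng13, which do not, by 0.56 and 2.29.

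Whether the falls differ in size was asked within each library, from the log2 ratio of the counts of 2 members, which does not depend on library scaling. In 82Q against WT the ratio changed for 24 of the 28 pairs (two-sided exact permutation test over 5 and 5 libraries, adjusted over the 28 pairs, largest adjusted p of these 24 pairs 0.0278; the smallest p that 5 against 5 allows is 0.00794). Gng13, Icmt, Pcp4 and Pvalb each differed from all 7 other members. Gng13 lost 1.28 log2 units more than Pcp2 (2.42-fold) and 1.74 more than Pvalb (3.33-fold), each with adjusted p = 0.00966 by this exact test. The count ratio of Pvalb to Gng13 was 4.27 to 4.58 in the WT libraries and 13.3 to 17.0 in the 82Q libraries. Icmt lost 0.76 log2 units less than Gng13 and 0.42 more than Dner, and Pcp4 lost 0.15 more than Calb1 and 0.23 less than Icmt (adjusted p = 0.00966 for each, exact permutation test). The 4 pairs not called all join members in the middle of the order. They are Pcp2 with Calb1 (0.13 log2 units, adjusted p = 0.08), Pcp2 with Ppp1r17 (0.04, 0.675), Calb1 with Dner (0.04 in size, 0.385) and Ppp1r17 with Dner (0.06, 0.395), all by the exact permutation test. The same test did call Pcp2 with Dner (0.09 log2 units, adjusted p = 0.0278) and Calb1 with Ppp1r17 (0.1 in size, 0.00966), which also lie in the middle.

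In 82Q_M120A against WT 16 of the 28 pairs differed by the same exact test, the largest adjusted p among them being 0.0417. Gng13 again differed from all 7 others, by 0.91 log2 units from Icmt up to 1.52 from Pvalb (adjusted p = 0.0159 for each, exact permutation test). Icmt differed from all but Pcp4 (0.16 log2 units, adjusted p = 0.0889), and Pcp4 from 5 of 7. Pvalb differed from 3 of 7, namely Gng13, Icmt and Pcp4. It was no longer told apart from Calb1 (0.27 log2 units in size, adjusted p = 0.0819), Dner (0.24, 0.176), Ppp1r17 (0.23, 0.121) or Pcp2 (0.18, 0.155). The count ratio of Pvalb to Gng13 spread from 9.85 to 16.8 in the 82Q_M120A libraries. Both comparisons use the same WT libraries, so their values stand side by side and are not independent.

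**Figure D3:**
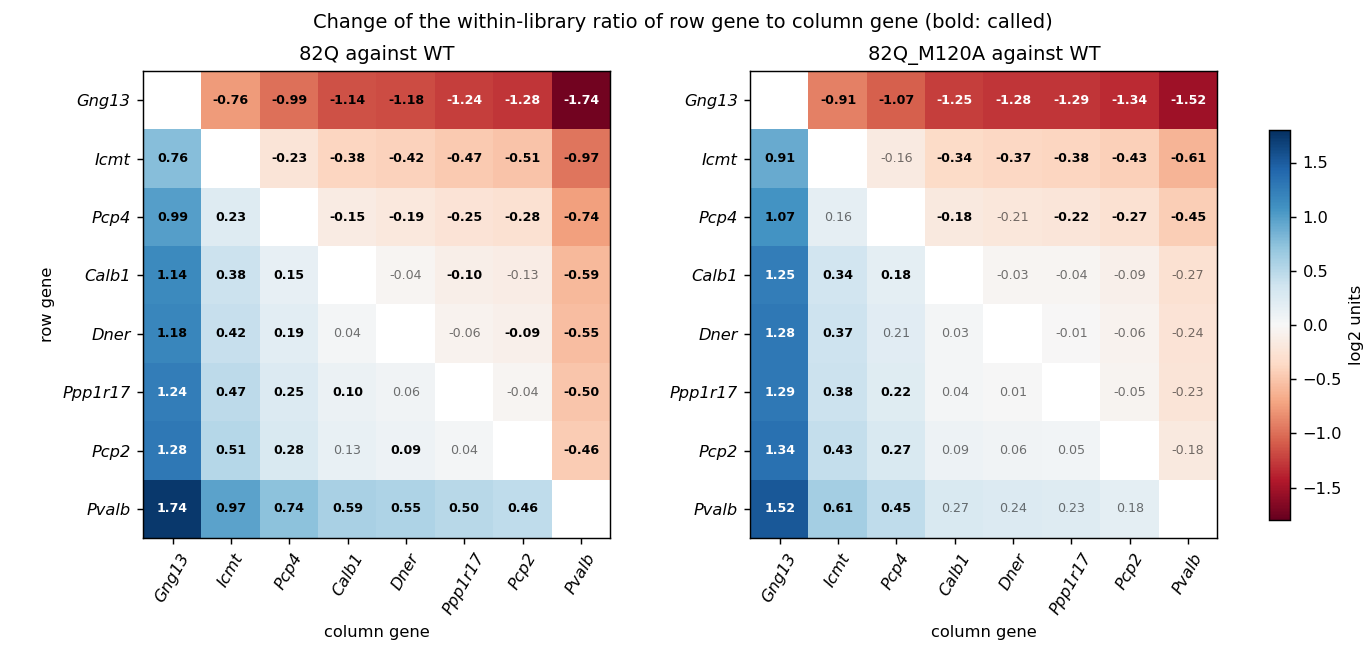
Change of the log2 ratio of the row gene to the column gene within a library, for 82Q against WT (left) and 82Q_M120A against WT (right), with genes ordered by the fall in 82Q and called pairs in bold. Negative values in the upper triangle mean that the row gene lost more, most for Gng13 against Pvalb in 82Q, which differ by 1.74, and the pale block in the middle holds the 4 pairs not called in 82Q.

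Between the groups that both carry Atxn1[82Q] none of the 8 genes was called, where 18.9% of all tested genes were called in either direction. Without adjustment 2 of the 8 were under 0.05 in the same edgeR fit across all genes, Pvalb at 0.0124 and Icmt at 0.0301. The share of all tested genes under 0.05 without adjustment is at least the 18.9% called after it, so these 2 do not stand out. DESeq2 called 1 of the 8 and limma-voom 1, in both cases Pvalb (adjusted p = 0.0249 and 0.0475). Over all genes they called 3634 and 3285. Pvalb had a log2 fold change of -0.22 (95% interval -0.39 to -0.05, adjusted p = 0.0605, edgeR quasi-likelihood) and was below the 82Q mean in 4 of 5 82Q_M120A libraries. It was called without 82Q_M120A-1 (-0.29, adjusted p = 0.0102) and without 82Q_M120A-2 (-0.26, adjusted p = 0.0393), and over all alternatives its adjusted p ran from 0.0102 to 0.143. Icmt had a log2 fold change of 0.13 (0.01 to 0.25, adjusted p = 0.112) with 1 of 5 libraries below the 82Q mean, and of 0.18 with adjusted p = 0.0229 when 82Q_M120A-3 was left out. The intervals of the others were -0.06 to 0.17 for Pcp2, -0.08 to 0.22 for Pcp4, -0.05 to 0.23 for Calb1, -0.13 to 0.20 for Ppp1r17, -0.23 to 0.22 for Gng13 and -0.04 to 0.22 for Dner. Set beside the falls of 0.56 to 2.29 log2 units in 82Q, no interval reaches beyond 0.25 in the direction of WT. Of the 28 within-library ratios none was called by the exact permutation test, and 6 had an unadjusted p under 0.05. The smallest adjusted p by this test was 0.0556, shared by Pvalb with Pcp4, Calb1, Dner and Icmt. For each of these pairs the ratios of the 2 groups did not overlap. Their unadjusted p was 0.00794, the smallest that 5 against 5 libraries allow. So few pairs at that smallest p cannot be called after adjustment over 28, and the lack of calls does not show equal ratios.

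The order of the 3 groups was WT highest for all 8 genes, with no overlap of WT with either other group. All 5 libraries lay below all 5 of WT for 9.79% of tested genes in 82Q and 12.9% in 82Q_M120A. For 6 genes 82Q_M120A was the middle group by its mean, for Pvalb 82Q was, and for Gng13 the means of 36.6 and 36.5 CPM were nearly equal. The libraries of 82Q and 82Q_M120A overlapped for all 8, where 12.1% of tested genes had no overlap.

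Spread was partly shared between the genes of a library, most so in WT. WT-2 was the lowest and WT-5 the highest WT library for all 8 genes, 82Q-5 was the lowest 82Q library for all 8, and 82Q_M120A-3 was the lowest of its group for 7. Relative to the group mean of each gene, the 8 genes lay on average 0.107 log2 units lower in WT-2, 0.102 higher in WT-5, 0.166 lower in 82Q-5 and 0.207 lower in 82Q_M120A-3. The same libraries stood out in the 24 other Purkinje cell genes, which summed to 13800 CPM in WT-2, 15200 in WT-5, 5750 in 82Q-5 and 5900 in 82Q_M120A-3, and each of these was the lowest or highest sum of its group. WT-5 is also the shallowest library. The median SD of log2 CPM over the 8 genes was 0.078 in WT, 0.104 in 82Q and 0.146 in 82Q_M120A. Over the 7140 genes that average 30 CPM or more it was 0.047, 0.062 and 0.063. Once the mean of the other 7 members in the same library was subtracted, the median SD over the 8 genes was 0.034, 0.064 and 0.100.

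Genes differed in what was left of the spread. After that subtraction the SD of Gng13 was 0.036 log2 units in WT, 0.106 among the 82Q and 0.176 among the 82Q_M120A libraries, that of Ppp1r17 was 0.040, 0.098 and 0.045, and that of Icmt was 0.022, 0.036 and 0.075. The count ratio of Dner to Icmt shows how tightly a pair could hold. It was 0.819 to 0.864 in WT, 1.11 to 1.14 in 82Q and 1.05 to 1.13 in 82Q_M120A. Pvalb had the largest SD after the other members were subtracted, 0.222 log2 units in 82Q_M120A, against 0.051 in WT and 0.063 in 82Q. In 82Q_M120A its SD before the subtraction was smaller, 0.196, so there Pvalb varied apart from the other members. With 5 libraries a group these spreads were not tested.

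**Figure D4:**
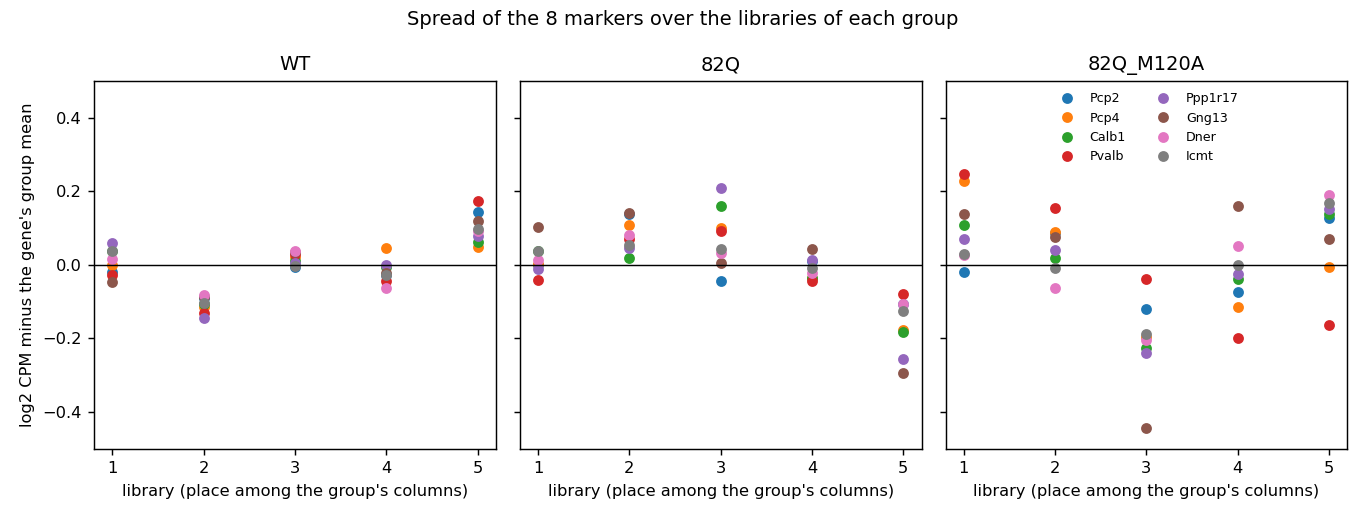
Log2 CPM of each marker minus its mean in the group (y axis) for each library of WT, 82Q and 82Q_M120A (x axis, place among the columns of the group), 1 colour per gene. The 8 points of a library mostly move together, as in WT-2 and 82Q-5 below 0, and scatter most in 82Q_M120A, where Pvalb is high in library 1 and low in libraries 4 and 5.

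The other Purkinje cell genes fell as well. Of a list of 24 such genes, chosen with earlier results of these data known, 23 were lower in 82Q and 1 was not called, with a median log2 fold change of -1.17 beside -1.13 for the 8 members and 0.01 for all tested genes. The deepest falls of the list were those of Rgs8, a regulator of G protein signalling (-2.02 ± 0.13), Gpr63, a receptor gene (-1.92 ± 0.10), and Atp2a3, a calcium pump of the endoplasmic reticulum (-1.75 ± 0.09), all short of Gng13. The smallest changes were 0.02 ± 0.06 for Foxp2, a transcription factor gene and the 1 of the list not called (adjusted p = 0.882, edgeR quasi-likelihood) and -0.16 ± 0.04 for the phospholipase gene Plcb4. In 82Q_M120A against WT 22 of the 24 were lower and 2 not called (median -1.01, beside -1.04 for the 8 members and 0.01 for all tested genes), with Gpr63 at -1.81, Atp2a3 at -1.73 and Rgs8 at -1.52. Foxp2 (-0.01, adjusted p = 0.958) and Plcb4 (-0.08, adjusted p = 0.115) were the 2 not called.

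Against 82Q, 5 of these 24 genes were higher in 82Q_M120A, where 10.3% of tested genes were called higher. None of the 24 was called lower, where 8.63% of tested genes were. The other 19 were not called in either direction, where 18.9% of tested genes were called. The 5 were Rgs8 (log2 fold change 0.50 ± 0.13), Car8, which binds the inositol trisphosphate receptor (0.48 ± 0.08), Ebf2, a transcription factor gene (0.35 ± 0.11, from 6.30 ± 0.656 to 8.02 ± 1.38 CPM, SD, n = 5, adjusted p = 0.0319, edgeR quasi-likelihood), Plcb3 (0.32 ± 0.07) and Skor2 (0.31 ± 0.06). The 8 members had a median of 0.06 in that comparison and the 24 genes one of 0.07.

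Markers of other cells were read in the same way. Over all tested genes 8.63% were called higher in 82Q against WT and 18.6% in 82Q_M120A against WT. In 82Q against WT granule cell genes had 1 of 10 higher (median log2 fold change -0.09), interneuron and Golgi cell genes 2 of 9 higher (0.05), Bergmann glia and astrocyte genes 3 of 8 higher and 2 lower (0.07), and vascular genes 1 of 8 higher and 1 lower (0.06). Oligodendrocyte genes were higher in 7 of 8 cases (0.30), with summed levels of 6290 to 7620 CPM against 5120 to 6150 in WT, and microglia genes in 8 of 8 (0.68), with 202 to 214 CPM against 128 to 141. In 82Q_M120A against WT the interneuron and Golgi cell list had 4 of 9 lower and 3 higher (-0.20), the granule cell list 5 of 10 higher and 1 lower (0.13), and the other lists 8 of 8 (oligodendrocyte), 6 of 8 (microglia, with 1 lower), 4 of 8 (vascular, with 1 lower) and 2 of 8 (Bergmann glia and astrocyte, with 2 lower) higher. The 7 choroid plexus genes had a median of -0.64 in 82Q and -1.96 in 82Q_M120A against WT. The 4 tested genes of brainstem and cerebellar nuclei had medians of -0.18 and -0.33, with none called. Of these, Slc17a6 went the other way, with log2 fold changes of 0.51 ± 0.18 and 0.29 ± 0.18, and Tph2 hardly moved (0.01 ± 0.16 and 0.07 ± 0.16). The tested genes of that list other than Slc17a6 averaged 0.617 CPM or less in every group. Summed over the whole list, the median library held 32.6 CPM for 82Q and 25.8 for 82Q_M120A, against 20.6 for WT. No marker of any list was at 0 in all libraries. With the choroid plexus level of each library as a covariate, an alternative chosen after seeing the data, the members' log2 fold changes in 82Q against WT ran from -2.28 to -0.53 and all 8 stayed called.

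**Figure D5:**
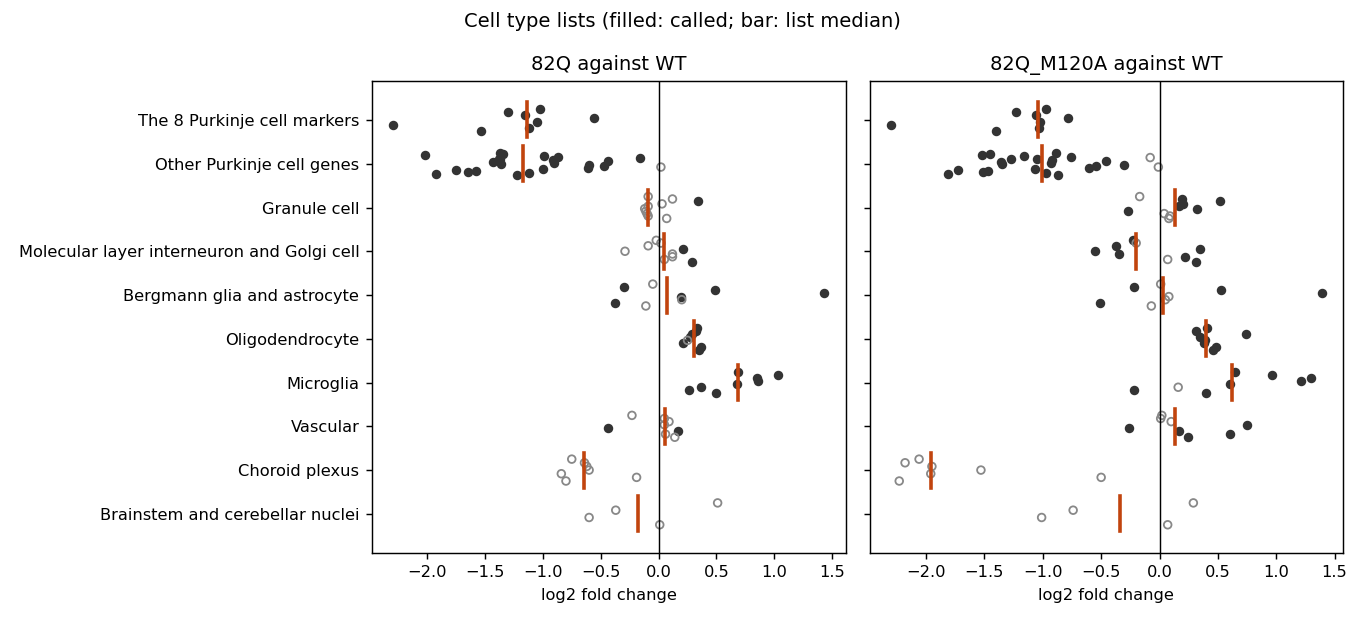
Log2 fold change (x axis) of each tested gene of the 8 markers and 9 other lists (rows) in 82Q against WT and 82Q_M120A against WT, with called genes filled, others open, and a bar at the list median. The 8 markers (median -1.13 and -1.04) all lie left of 0, as do the other Purkinje cell genes except Foxp2 in 82Q (0.02), and the microglia medians (0.68 and 0.63) lie right of it.

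Other genes followed the members closely over the 15 libraries. Of those named here, Homer3 and Inpp5a belong to the list of other Purkinje cell genes. Likeness was measured as Pearson's r of log2 CPM with the mean of the 8 members, over genes that average 1 CPM or more and are not named as predicted models, and it mostly reflects the step between WT and the other groups. The closest were Nsg1, a protein of neuronal endosomes (r = 0.997; WT mean 822 CPM, 82Q mean 448 CPM), Cep76, a centrosomal protein (0.997; 196 CPM in WT and 59.8 in 82Q), the zinc finger gene Zfp385c and Shisa6, which binds AMPA receptors (both 0.997). Ywhah, a 14-3-3 protein, and the cGMP phosphodiesterase gene Pde5a (0.997 and 0.997) came next, then Cacnb2, Large, Homer3 and Erp29 (0.996 to 0.995). Homer3, a postsynaptic scaffold protein, was the gene most like Pcp2 (r = 0.998), Cep76 the one most like Calb1 (0.998), Gabbr1, a subunit of the GABA-B receptor, the one most like Gng13 (0.997), and Inpp5a, an inositol phosphate phosphatase, the one most like Icmt (0.997). For Pvalb the closest was Gria3, a subunit of AMPA receptors (0.984; 193, 143 and 124 CPM), which like Pvalb was lowest in 82Q_M120A by its mean. Among the members r over the 15 libraries was 0.982 or higher for all pairs without Pvalb and 0.869 to 0.920 for those with it.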

How the data were processed

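Counts per gene symbol were deposited by the authors as 1 table of cerebellar RNA libraries. Per the submitters' processing notes, reads were handled with CASAVA 1.8, HISAT2 2.0.1, featureCounts and Subread on mm10. Annotation, strand setting and multi-mapping reads are not stated in the sources used here. Columns name the group, the age and an ID number that no sample label holds, so no column was matched to 1 sample entry.

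The 8 members and all lists were chosen with earlier results of these data known. Counts of all 15 libraries were fitted with edgeR 4.0.16 (R 4.3.3, filterByExpr, TMM, robust glmQLFit, group as the only factor), two-sided, with Benjamini-Hochberg adjustment over 16808 tested genes and 0.05 as the threshold. SEs are the log2 fold change over the square root of F. Ratios of members used a prior of 0.5 counts. Log2 CPM had a prior of 2 for the likeness between genes and no prior for the SDs and deviations from group means. Alternatives were DESeq2 1.42.0, limma-voom 3.58.1, other scalings, filters and thresholds, the compared groups alone and leaving out each library. The fits were tested on simulated data. Coordinates are from GENCODE M21, upstream windows from RefSeq. Named genes are the members, the 3 largest and smallest changes of the list of other Purkinje cell genes, any it holds that were not called, and those most alike over the libraries; 1 gene that this rule names is not reported here. The risen members of that list, Pet100, Chtf18, Igsf5, Slc17a6 and Tph2 were named after their values were seen.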

Additional observations from a re-analysis of the deposited data

Results flagged for a closer look

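The level of Gng13 in 82Q_M120A-3, 26.5 CPM, lay far below the other 4 libraries of its group, with a gap to the nearest of 0.828 of the group's whole range, above the critical value of 0.71 for 5 samples. It was the only one of the 24 sets of 5 values (8 genes in 3 groups) to do so, and chance alone gives about 1 in 20. The same library was the lowest of its group for 7 of the 8 markers. Without it Gng13 differed from 82Q by 0.09 on the log2 scale (adjusted p = 0.415, edgeR quasi-likelihood).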

How the results depend on the processing

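All 8 markers were called lower against WT in both groups under every alternative run. The log2 fold changes of 82Q against WT ranged from -2.33 to -2.22 for Gng13 and from -0.59 to -0.52 for Pvalb when 1 library was left out. In 82Q_M120A against 82Q the number called went from 0 to 1 with DESeq2 and to 1 with limma-voom, and ranged from 0 to 1 without 1 library. Signs turned in that comparison only for values near 0, with Gng13 at 0.0034 under the choroid plexus covariate (an alternative chosen after seeing the data) and between -0.07 and 0.09 without 1 library, and Ppp1r17 between -0.02 and 0.09. At adjusted p under 0.01 the genes called over the whole table were 1823, 4060 and 1645 in place of 3142, 6118 and 3175, and the pairs of markers with unequal falls in 82Q_M120A against WT went from 16 to 0, their smallest adjusted p being 0.0159 by the exact permutation test, while 23 remained called in 82Q against WT. Without 1 library the pairs numbered 23 to 25 in 82Q and 14 to 19 in 82Q_M120A against WT. Scaling by library size only moved the median of all genes by 0.05 log2 units in 82Q against WT. No paired analysis was possible because the columns carry no replicate numbers.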
